A study of Mus musculus with 11 samples.

Results

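Of 94963 accessible regions in MPC2 cells, 2944 lay over protein-coding sequence away from promoters, which is 3.10% of the list (95% Wilson interval 2.99 to 3.21%) and 4.01% of the 73426 regions outside promoters. A region was taken when its edge was more than 1000 bp from the start of every annotated transcript in the GENCODE vM21 annotation of mm10 and when it covered at least 50 bp of coding sequence (CDS) of a protein-coding gene. The 2944 regions fell on 2451 genes. MPC2 is a single conditionally immortalised mouse mesenchymal progenitor clone that differentiates into osteocyte-like cells. ATAC-seq, in which the transposase Tn5 cuts open chromatin, was performed on 11 cultures of this line. Undifferentiated MSC cultures received vehicle (DMSO, n = 3) or 50 uM FG-4592 (n = 3), and cultures differentiated in osteogenic medium for 3 weeks received vehicle (n = 2) or 50 uM FG-4592 (n = 3), each for 48 hours. FG-4592, or Roxadustat, inhibits the prolyl hydroxylases that mark HIF for degradation.

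The deposited list held 1 value per region, here called the level. It was read as an average log2 CPM of transposase cuts over all cultures, so a difference of 1 corresponds to a factor of 2 in cuts. The values did not separate undifferentiated from differentiated cells or vehicle from FG-4592, so no treatment comparison, replicate error or test could be given, and the total cuts per culture are unknown. Intervals on shares are 95% Wilson intervals, those on medians are order-statistic intervals and those on site rates are exact Poisson intervals. All of them cover counting error only. Among promoters of lineage genes, 6 of 9 osteoblast and osteocyte genes held a region at levels of 2.33 to 5.05, as did 3 of 5 mesenchymal progenitor genes at 3.07 to 6.14. Among 10 genes of blood, endothelium, epithelium, muscle and neural crest, 2 held one, at 1.84 and 1.89. Of the osteocyte markers, Dmp1 held a promoter region at 4.41, and Phex, Mepe and Sost held none. For comparison, 69% of the genes counted that had no region over their coding exons had a promoter region, so the shares of the first 2 lists are near the general one.

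Most accessible regions of a differentiated cell lie at promoters and at enhancers in introns or between genes. Coding exons are constrained by the protein they encode, with freedom mainly at synonymous positions, yet transcription factors can bind them, and some exons act as enhancers of their own or of neighbouring genes. In multi-exon genes the first coding exon carries the start codon, the last carries the stop codon, and internal exons are bounded by splice sites. Genes with 1 coding exon carry both codons on it and have no intron in their coding sequence, and some of them, such as most histones and the clustered protocadherins of the beta group, have no intron at all. CpG islands, stretches rich in unmethylated CpG dinucleotides, usually mark promoters but also occur inside genes.

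Each region was placed by the coding exon it covered most, in 1 reference transcript per gene. Internal coding exons accounted for 2072 regions (70.4%), last coding exons for 592 (20.1%, 18.7 to 21.6%), first coding exons for 99 (3.36%, 2.77 to 4.08%) and single coding exons for 82 (2.79%, 2.25 to 3.44%). The remaining 99 regions, or 3.36%, touched coding sequence of other transcripts. The sequences below are from regions with high levels in each exon class. Each is read from GRCm38 on the strand of the gene and spans up to 160 bp that include the coding base nearest to the centre of the region, with coding bases in capitals and flanking intron in lower case.

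For first coding exons the windows are from Traf5 (chr1:192070466-192070625, minus strand) and Nup160 (chr2:90679409-90679568, plus strand). Traf5 encodes an adaptor of tumour necrosis factor receptors and Nup160 a component of the nuclear pore.
Traf5: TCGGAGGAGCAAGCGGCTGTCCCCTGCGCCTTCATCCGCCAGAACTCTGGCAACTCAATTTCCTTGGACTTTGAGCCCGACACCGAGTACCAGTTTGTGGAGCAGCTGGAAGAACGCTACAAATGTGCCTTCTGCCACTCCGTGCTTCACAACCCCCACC
Nup160: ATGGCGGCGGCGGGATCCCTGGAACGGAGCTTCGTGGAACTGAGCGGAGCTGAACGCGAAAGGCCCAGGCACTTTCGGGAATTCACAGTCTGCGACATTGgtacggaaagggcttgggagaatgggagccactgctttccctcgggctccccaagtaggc

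For internal coding exons the windows are from Plekhg6 (chr6:125377457-125377616, minus strand) and Btd (chr14:31662245-31662404, plus strand). Plekhg6 encodes a guanine nucleotide exchange factor and Btd encodes biotinidase, which recycles biotin.
Plekhg6: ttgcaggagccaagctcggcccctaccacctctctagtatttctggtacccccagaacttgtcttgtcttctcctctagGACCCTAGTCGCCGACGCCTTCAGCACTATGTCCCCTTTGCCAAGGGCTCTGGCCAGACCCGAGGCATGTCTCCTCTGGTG
Btd: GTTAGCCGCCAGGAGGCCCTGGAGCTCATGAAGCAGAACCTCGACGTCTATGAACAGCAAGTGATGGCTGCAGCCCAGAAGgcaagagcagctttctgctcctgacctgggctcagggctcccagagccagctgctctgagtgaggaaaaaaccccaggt

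For last coding exons the windows are from Trim14 (chr4:46507347-46507506, minus strand) and Clec11a (chr7:44304906-44305065, minus strand). Trim14 encodes an adaptor of antiviral signalling, and Clec11a encodes a secreted lectin of bone marrow stroma that promotes osteogenesis. Their windows held 20 and 12 CpG dinucleotides, against 5 and 3 in the windows of Plekhg6 and Btd. The windows of Traf5 and Nup160 held 8 and 12, and that of Sf3b5, given below, held 10.
Trim14: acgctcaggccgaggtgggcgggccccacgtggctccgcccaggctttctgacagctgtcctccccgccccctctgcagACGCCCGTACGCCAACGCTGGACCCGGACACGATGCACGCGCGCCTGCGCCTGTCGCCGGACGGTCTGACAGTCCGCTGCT
Clec11a: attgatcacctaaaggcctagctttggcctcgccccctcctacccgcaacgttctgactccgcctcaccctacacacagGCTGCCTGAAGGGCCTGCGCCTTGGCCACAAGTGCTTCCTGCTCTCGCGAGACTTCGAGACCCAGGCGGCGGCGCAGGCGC

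For single coding exons the window is from Sf3b5 (chr10:13008623-13008782, plus strand), which encodes a subunit of the SF3b splicing complex. It opens with the start codon.
Sf3b5: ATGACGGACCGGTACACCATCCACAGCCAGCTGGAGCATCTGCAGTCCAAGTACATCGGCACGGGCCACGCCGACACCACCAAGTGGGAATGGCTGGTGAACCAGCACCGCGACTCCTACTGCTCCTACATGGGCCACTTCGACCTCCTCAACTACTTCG

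The median level over coding exons was 1.97 (1.91 to 2.03), against 1.88 (1.87 to 1.90) over the other 70482 regions outside promoters and 3.89 (3.84 to 3.94) at 21537 promoter regions. Level followed width closely. Regions over coding exons had a median width of 433.5 bp, the other non-promoter regions 407 bp and promoters 867 bp. Within bins of like width, the coding-exon regions differed from the other non-promoter regions by -0.01 on the log2 scale and were higher in 11 of 19 bins. Against promoters the same comparison gave -0.25, with the coding-exon regions higher in 0 of 19 bins.

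Levels differed little between the exon classes. The median was 1.77 (1.37 to 2.29) on first, 2.01 (1.93 to 2.08) on internal, 1.90 (1.76 to 2.04) on last and 1.74 (1.29 to 2.06) on single coding exons, and these intervals overlapped. Within 5 width bins, first, last and single exons differed from internal exons by -0.05, 0.05 and 0.09 on average, and were higher in 2, 3 and 2 of the 5 bins.

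**Figure D1:**
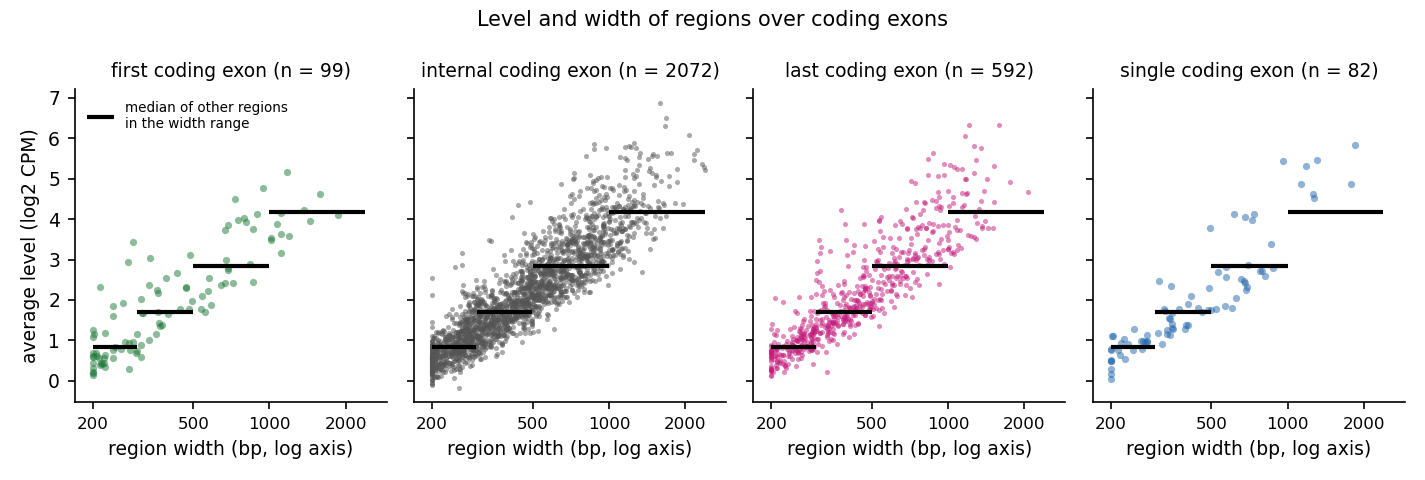
Average level (log2 CPM) against region width (bp, log axis), 1 point per region, for the 99 first, 2072 internal, 592 last and 82 single coding exon regions. Black bars are the median level of the other non-promoter regions in 4 width ranges (0.85, 1.72, 2.85 and 4.17 from narrow to wide). Level rises with width in each class and the points lie around the black bars.

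Among the 10 highest levels were those of Plekhg6 (6.86), Btd (6.51), Trim14 (6.33), Clec11a (6.32), Plin4 (6.08), Ccdc92b (6.05), Prdm2 (5.89), Plec (5.85) and Pura (5.83). The Plekhg6 region (chr6:125377111-125378700) was 1590 bp wide, covered the whole 156 bp of coding exon 2 of 15 and held 2 sites of AP-1, the factor of FOS and JUN proteins. The Btd region (chr14:31661577-31663250) covered coding exon 2 of 4, 20291 bp from the nearest start. Plin4 encodes a lipid droplet protein. Its region (chr17:56102036-56104111) held 1265 bp of coding sequence, of which 695 bp lay in an internal exon of 2106 bp, coding exon 5 of 8. Of the 10, 6 were on internal, 3 on last and 1 on single coding exons.

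The 5 widest regions were on Itga10 (2388 bp, level 5.20), Mvb12b (2377 bp, 5.28), Wwc2 (2338 bp, 5.35), Kremen1 (2221 bp, 5.71) and Nav2 (2170 bp, 5.61). Itga10 encodes a collagen-binding integrin subunit of cartilage, and Kremen1 a receptor for the Wnt antagonist Dkk. All 5 lay on internal coding exons and covered 56 to 177 bp of coding sequence. Coding bases thus made up a small part of each.

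Across all 2944 regions, a median of 34.0% of the bases were coding (quartiles 19.0 and 61.9%). Of the regions on internal exons, 1163 (56.1%) contained the whole exon. Regions made of coding sequence alone numbered 377 (12.8%). These were narrow, with a median of 292 bp against 466 bp for the others, and their median level was 1.13 against 2.13. Within 5 width bins the difference was -0.15 on the log2 scale, and they were higher in 0 of 5 bins. At least 50 bp of 2 reference coding exons were covered by 166 regions, of 3 by 19 and of 4 by 3.

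To compare the classes on equal terms, the coding exons themselves were counted. Of 129260 reference coding exons that were at least 50 bp long and more than 1000 bp from every start, 2914 (2.25%) held a region. Single coding exons held one most often, at 6.69% of 718 exons (5.08 to 8.75%). Last coding exons followed at 4.20% of 13654 (3.87 to 4.55%), first coding exons at 3.02% of 2682 (2.44 to 3.74%) and internal coding exons at 1.97% of 112206 (1.89 to 2.05%). The intervals of last and internal exons did not overlap. The classes also differed in length, with a median of 126 bp for internal, 142 bp for first, 165 bp for last and 951 bp for single exons. Of the 718 single exons, 28 were of genes of 1 exon, out of 2478 such genes, and 690 of genes with noncoding exons, so nearly all intronless genes are outside this count.

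Long exons held a region more often than short ones. Among internal exons the share rose at each step of length, from 1.52% at 50 to under 100 bp to 3.74% at 300 to under 500 bp and 19.0% at 2000 bp or more. The share of their bases covered changed less, with 1.48, 2.50 and 2.83% in these 3 ranges. It was 3.96% at 1000 to under 2000 bp. In the other classes it rose with exceptions. At like length, last exons of 100 to under 150 bp held a region in 3.06% of cases (2.51 to 3.72%) against 1.76% (1.63 to 1.89%) of internal ones. At 200 to under 300 bp the values were 5.29% (4.40 to 6.36%) and 2.41% (2.14 to 2.72%). The intervals did not overlap in either range, but they did at 150 to under 200 bp, with 2.67% (2.10 to 3.38%) and 2.09% (1.92 to 2.28%). Counted per exon, the direction turned among long exons. At 1000 to under 2000 bp, 8.87% (6.92 to 11.3%) of last exons and 13.9% (10.8 to 17.7%) of internal exons held a region, with intervals that overlapped. By bases, last and internal exons were covered at 2.59 and 3.96% in that range, and at 3.04 and 2.83% at 2000 bp or more.

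When internal exons were weighted to the lengths and start distances of each other class, last exons held a region more often than internal exons, at 4.20 against 3.22%. First exons were near internal ones, at 3.02 against 2.83%. Single exons held one less often, at 6.69 against 10.3%. By bases rather than exons, 3.28% of coding bases of last exons beyond 1000 bp from a start lay in a region. The values were 2.68% for first exons, 1.91% for internal exons, 2.58% for genes of 1 exon and 2.23% for genes with 1 coding exon among several exons. Coding bases as a whole were covered at 2.22%, close to the untranslated bases of coding transcripts (2.14%) and above introns (1.89%) and intergenic sequence (1.16%).

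**Figure D2:**
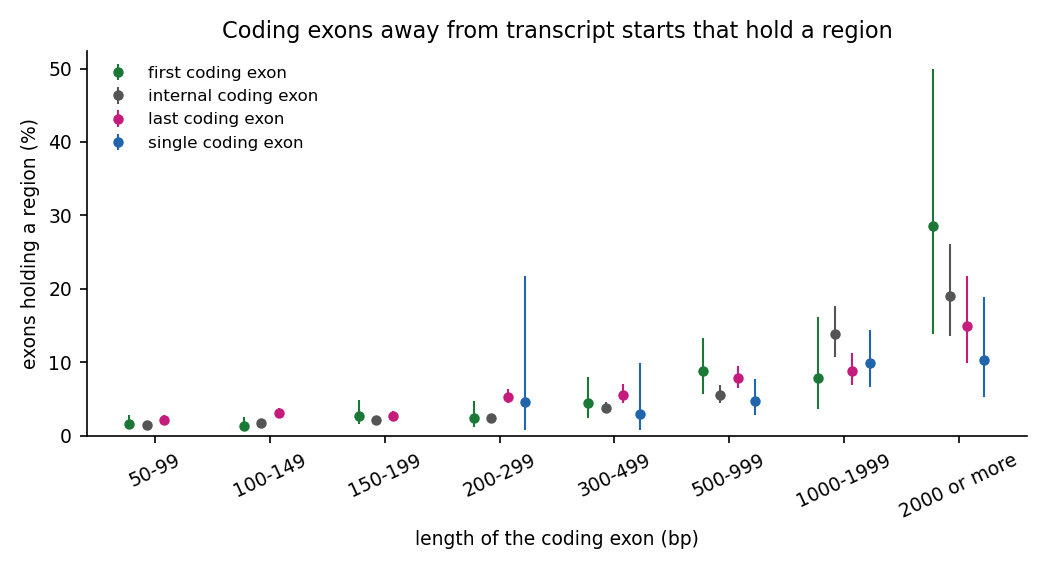
Share of coding exons that hold a region (%), by exon length (bp), for first, internal, last and single coding exons more than 1000 bp from every transcript start. Points are shares, bars are 95% Wilson intervals, and groups of under 20 exons are left out. Shares are highest among long exons, and last exons lie above internal ones from 50 to under 1000 bp, with intervals that overlap in part of that range.

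Coverage by regions outside promoters was then followed along the gene at positions more than 1000 bp from every start. Around internal coding exons it dipped. At the 3′ splice site, where an exon begins, 1.61% of 117822 positions lay in a region (1.54 to 1.68%), and the lowest value on the upstream flank, 100 bp into the intron, was 1.54% (1.47 to 1.61%). At 2000 bp upstream it was 2.12% (2.03 to 2.21%) and at 2000 bp downstream 2.13% (2.04 to 2.22%). The 5′ splice site, where the exon ends, showed 1.73% (1.65 to 1.80%).

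At the stop codon the pattern was different. Coverage was 1.98% (1.75 to 2.23%) at 2000 bp upstream of it, 2.91% (2.67 to 3.18%) at 250 bp upstream and 2.70% (2.47 to 2.95%) at the codon itself. It was 2.14% (1.94 to 2.37%) at 400 bp downstream and returned to 2.91% at 2000 bp downstream. Leaving out CpG-rich regions, with at least 55% GC and an observed-to-expected CpG ratio of at least 0.6, changed the value at 250 bp upstream to 2.29% (2.07 to 2.53%) and that at 2000 bp downstream to 2.82%. The values at 2000 bp upstream and 400 bp downstream were then 1.95% (1.7 to 2.2%) and 2.09% (1.89 to 2.31%). Both intervals overlapped that at 250 bp upstream. At 50 bp upstream the value was 2.34% (2.12 to 2.57%), and its interval lay above that at 850 bp upstream, 1.87% (1.66 to 2.10%). Without CpG-rich regions the rise before the stop codon was thus smaller, and whether it was separate depended on the positions compared. Start codons more than 1000 bp from a transcript start numbered 3869, and 1.89% of them lay in a region. At 1000 bp upstream of these the value was 3.01% (2.45 to 3.68%).

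**Figure D3:**
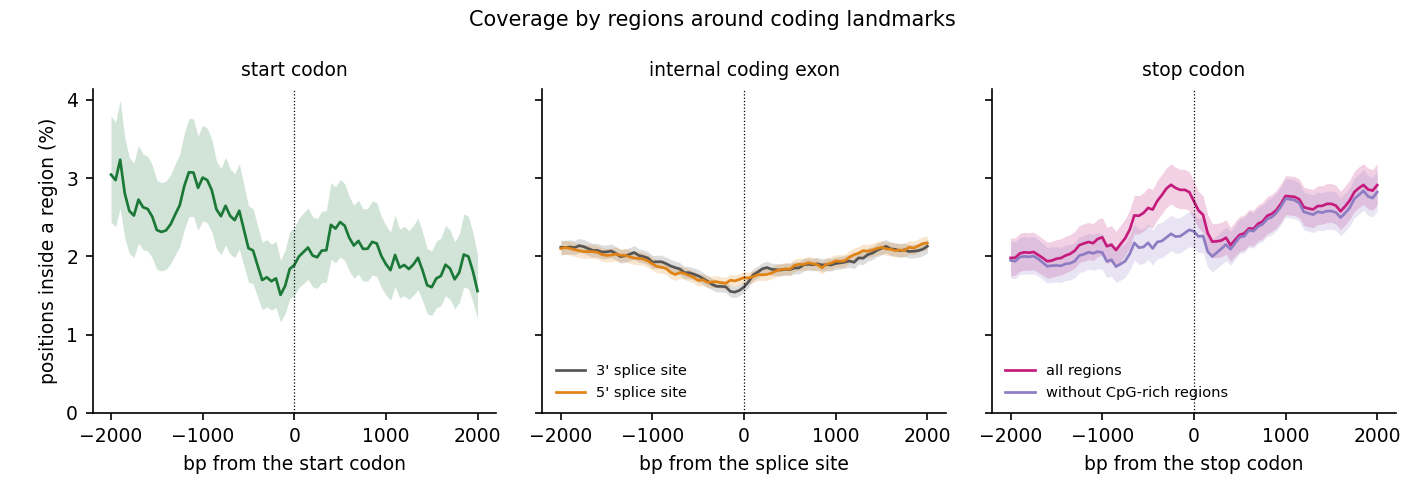
Share of positions inside a region outside promoters (%), against distance (bp) from start codons, from the 3′ and 5′ splice sites of internal coding exons and from stop codons. Lines are shares, shaded bands 95% Wilson intervals, and positions within 1000 bp of a transcript start are left out. Coverage dips to 1.54% beside internal exons and reaches 2.91% at 250 bp before stop codons, or 2.29% without CpG-rich regions.

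Regions on last exons usually reached the stop codon, which was covered in 359 of 592 (60.6%, 56.7 to 64.5%). Their median level was 2.39, against 1.32 for regions that did not reach it. They were also wider, with a median of 502 against 303 bp, and within width bins the difference was 0.16, in the same direction in 4 of 4 bins. On first coding exons the start codon was covered in 47 of 99 (47.5%, 37.9 to 57.2%), with a median level of 2.43 against 1.15 and a median width of 469 against 303.5 bp. These regions were too few to compare within width bins. On single coding exons, 19 of 82 regions covered the start codon and 17 covered the stop codon.

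CpG content differed between the classes. Regions over coding exons had a median GC content of 53.5%, and 269 of them (9.14%, 8.15 to 10.2%) were CpG-rich. In introns the share was 0.39% (0.33 to 0.46%), in intergenic regions 0.89% (0.79 to 1.00%) and at promoters 41.0%. By class, 4.01% of regions on internal exons were CpG-rich (3.2 to 4.9%), against 22.1% on last (19.0 to 25.6%), 20.2% on first (13.5 to 29.2%) and 35.4% on single coding exons (25.9 to 46.2%). The last 3 intervals all lay above that of internal exons.

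The exons were also sorted by their own CpG content, for those of at least 200 bp. Among last coding exons, 521 were CpG-rich and 23.2% of these (19.8 to 27.0%) held a region, against 4.84% (4.26 to 5.48%) of the 4756 others, at median lengths of 374 and 378 bp. Among single coding exons the shares were 34.0% (22.2 to 48.3%) of 47 and 4.89% (3.49 to 6.83%) of 654. Among first coding exons they were 14.0% (8.17 to 22.8%) of 86 and 4.71% (3.43 to 6.42%) of 786. Internal exons showed the smallest gap, with 7.61% (6.08 to 9.49%) of 933 and 3.05% (2.78 to 3.35%) of 14067. In each class the 2 intervals did not overlap.

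The level of CpG-rich regions over coding exons was near that of the others, with a median of 1.88 (1.63 to 2.22) against 1.97 (1.91 to 2.05), though within width bins they lay 0.22 higher and were higher in 4 of 5 bins. The highest CpG-rich regions on last exons were those of Trim14, Clec11a and Ccdc92b, followed by Fbxl22 (5.75), Rax (5.63) and Ccr10 (5.50). Trim14 lay 11681 bp and Ccdc92b 10462 bp from the nearest annotated start, whereas Clec11a lay 1173 bp from its own.

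On first coding exons the highest levels were those of Traf5 (5.17), Nup160 (4.78) and Prr7 (4.62). The Nup160 region (chr2:90678807-90679746) covered all 100 bp of the first coding exon and was CpG-rich, 1592 bp from the nearest start of the gene. The Traf5 region (chr1:192069961-192071130) was not CpG-rich and lay 3320 bp from the nearest start, that of Gstp-ps. The Prr7 region (chr13:55471189-55472766) was 1578 bp wide and CpG-rich, with 70.2% GC. It held 16 matches to the core of the hypoxia response element (HRE), ACGTG or GCGTG, which itself contains a CpG.

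Genes with a single coding exon fell into 2 kinds. Genes of 1 exon, without any intron, had 22 of the regions on 20 genes, out of 521 such genes with at least 50 coding bp beyond 1000 bp from a start (3.84%, 2.50 to 5.85%). Genes with 1 coding exon and further noncoding exons had a region in 56 of 924 (6.06%, 4.70 to 7.79%). Genes with several coding exons had one in 2374 of 17218 (13.8%, 13.3 to 14.3%). These shares are per gene and take no account of how much coding sequence a gene has, and by bases genes of 1 exon were covered at 2.58% and internal exons at 1.91%.

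Among genes with noncoding exons, high levels were on Pura (5.83, chromosome 18), which encodes a nucleic acid binding protein, and Zfp474 (5.46, chromosome 18), a zinc finger gene. The 4 regions on Mgat1, which encodes a Golgi enzyme of N-glycan processing, lay side by side on its single coding exon with levels of 1.75, 1.19, 0.51 and 0.50. The Olfr70 exon, of an olfactory receptor, held 2 regions at 2.33 and 1.04.

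Genes of 1 exon split by level. Sf3b5 (5.30), Hist1h1d (4.87), Irf2bpl (4.53), Gm10277 (4.06), Fzd7 (3.78) and Ndn (3.39) stood above the other 16 regions, which ran from 0.49 to 2.24. Hist1h1d encodes a linker histone, Fzd7 a Wnt receptor and Ndn the imprinted protein necdin. Some of these lay at starts in another annotation. Sf3b5, Hist1h1d and Ndn had curated RefSeq transcripts that started inside their regions, although the GENCODE starts were 2559, 1602 and 1505 bp away. In all, 5 of the 22 regions on genes of 1 exon (22.7%) were within 1000 bp of a curated RefSeq start, the other two being Gja10 and Olfr95. For single coding exons as a whole it was 6 of 82 and for all regions 20 of 2944 (0.68%).

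The Pcdhb cluster supplied 9 of those 16 regions on genes of 1 exon. Clustered protocadherins are neuronal adhesion molecules encoded by tandem arrays of similar genes on chromosome 18. In this family 16 of 57 genes (28.1%, 18.1 to 40.8%) held 19 regions, all on the long variable exon, which is the first coding exon in the alpha and gamma groups (10 regions) and the single one in the beta group (9 regions). The median level was 1.15, near the 1.13 of all regions made of coding sequence alone, with a lowest value of 0.42 on Pcdha9 and a highest of 2.24 on Pcdhb10. Regions per Mb came to 1466 (883 to 2290), but the exons that hold them are not in the denominator, which takes only exons wholly away from starts, so this rate cannot be compared with that of other families. A median of 100% of the bases was coding, and 10 of the 19 regions were CpG-rich. The genes resemble one another, so reads can be assigned uncertainly among them.

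Gene families differed in how many of their genes held a region, against 11.2% (10.8 to 11.6%) of all 21853 genes. Of the 40 families counted, laminins had the largest share, 6 of 11 (54.5%, 28.0 to 78.7%). Laminins are large basement membrane proteins. Notch, Jag and Dll genes, of the Notch receptors and their ligands, followed with 4 of 9 (44.4%, 18.9 to 73.3%). Myosins had a region in 15 of 39 (38.5%, 24.9 to 54.1%), kinesins in 15 of 44 (34.1%, 21.9 to 48.9%), collagens in 15 of 45 (33.3%, 21.4 to 47.9%) and Adamts proteases in 8 of 24 (33.3%). These genes are long. Per Mb of coding sequence away from starts, laminins had 148 regions (67.6 to 281), myosins 139 (87.8 to 208), kinesins 164 (95.5 to 263) and collagens 179 (119 to 259), and each interval included the value over all genes, 130.2.

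**Figure D4:**
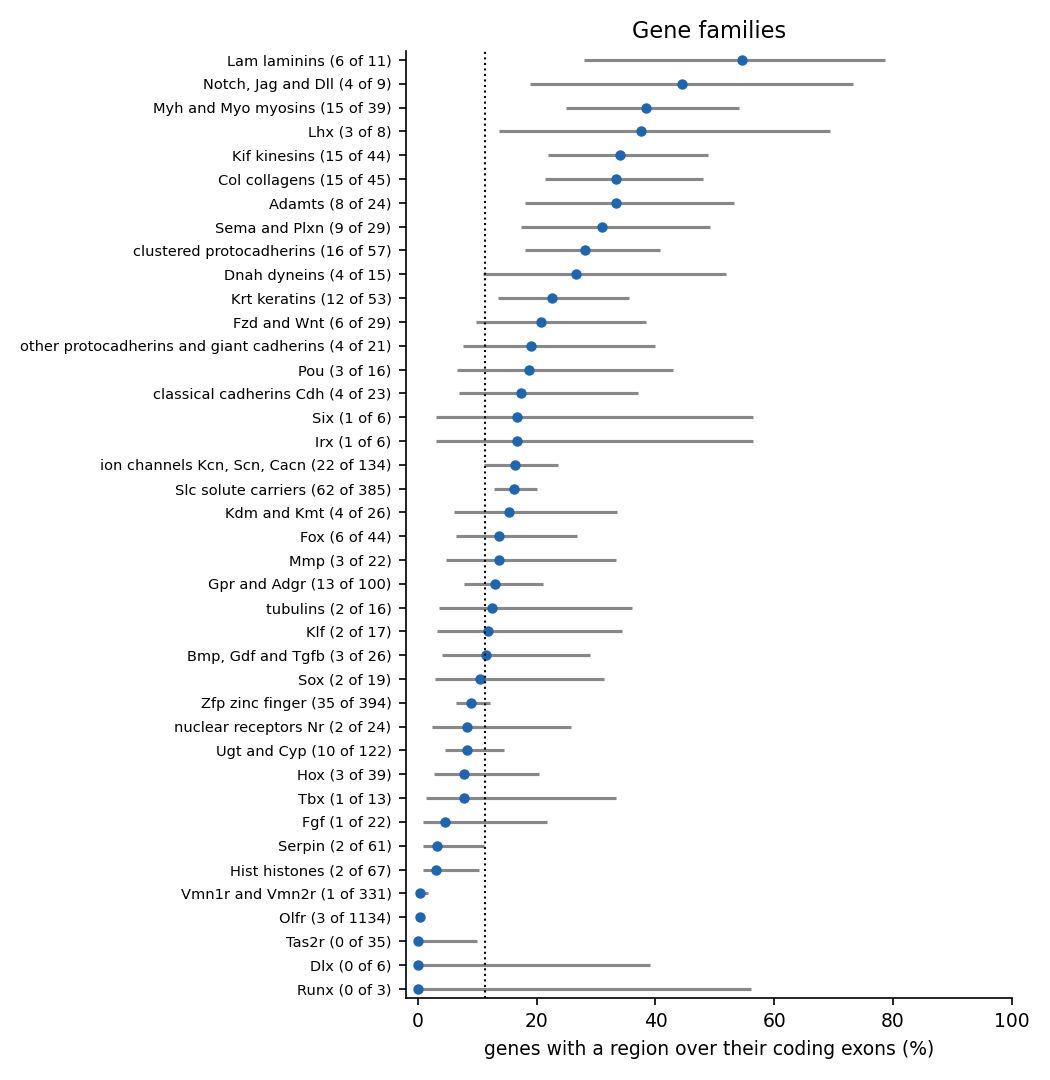
Share of genes with a region over their coding exons (%), for 40 gene families, with 95% Wilson intervals and, in brackets, genes with a region of genes in the family. The dotted line is the share over all genes, 11.2%. Laminins are at the top with 54.5%, and olfactory and vomeronasal receptors lie at 0.26 and 0.30% of all their genes. Most of these receptor genes had no coding exon that could be counted.

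Collagens supplied 28 regions with a median level of 2.66, the highest being Col15a1 (5.50) at coding exon 38 of 40. Col12a1, a fibril-associated collagen, had 6 regions at levels from 2.07 to 4.56. Col1a1, which encodes the main chain of bone collagen, had 3 regions at 1.44, 2.67 and 2.80. The 3 regions of Col8a1 lay on its last coding exon. No collagen region was CpG-rich.

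Keratins, the intermediate filament proteins of epithelia, had 13 regions on 12 of 53 genes. These came to 309.5 per Mb (165 to 529), above the value for all genes, with levels up to 3.01 on Krt31. Keratins were picked from 40 families, and the intervals of single families do not allow for that choice. The 2 histone regions came to 1921 per Mb (233 to 6940) over 1.04 kb, and both lay on a curated RefSeq start. Zinc finger genes named Zfp had 40 regions on 35 of 394 genes. Per Mb they lay below the value for all genes, at 69.9 (49.9 to 95.1). Per exon, 3.27% of 1130 Zfp exons held a region, against 2.25% of 129260 exons over all genes. The Zfp exons held 572.6 kb of coding sequence and those of all genes 22619 kb. The Zfp exons were thus longer, and the 2 shares per exon are not at like length. Of the 40 Zfp regions, 21 were on last coding exons, against 20.1% of all regions over coding exons. How much Zfp coding sequence lies on last exons was not counted, so this is no measure of preference. Axonemal dyneins of the Dnah group, which are long genes, had a region in 4 of 15 (26.7%, 10.9 to 52.0%) but 34.6 per Mb (12.7 to 75.3). Among chemoreceptors, 3 of 1134 Olfr genes and 1 of 331 Vmn1r and Vmn2r genes held a region, and none of 35 Tas2r genes did. Most of these genes are short and lay within 1000 bp of their start, so that 98 Olfr genes, 135 vomeronasal receptor genes and no Tas2r gene had coding exons that could be counted. The rate was 43.5 per Mb (11.9 to 111) for the Olfr genes and 3.43 per Mb (0.09 to 19.1) for the vomeronasal receptors.

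Among developmental regulators the numbers were small and the intervals wide. Hox genes had 3 regions (interval 61.9 to 877 per Mb), on Hoxc9 (4.13), Hoxb8 (3.12) and Hoxb3 (0.86), although the Hoxc9 region lay 385 bp from a curated RefSeq start. Fox genes had 6 (72.9 to 433 per Mb), led by Foxn2 (4.03). Lhx genes had 3 on 3 of 8 genes (114 to 1620 per Mb), all CpG-rich, led by Lhx6 (2.09). Klf4, a reprogramming factor, held 4.34 on coding exon 3 of 5. Dlx and Runx genes, which include regulators of bone formation, had none, with 2.38 and 2.85 kb of coding sequence counted. Among Wnt and Frizzled genes, Fzd7 (3.78), Wnt10a (3.18), Wnt6 (2.90), Wnt8b (2.47), Wnt10b (2.39) and Wnt5a (0.45) held 1 region each (101.3 to 600.8 per Mb), and 5 of these 6 were CpG-rich. For Hox, Fox and Wnt with Frizzled genes, as for Lhx genes, the interval included the value over all genes.

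Of the 282 symbol roots shared by at least 10 genes, 56 had no region. Annexins, membrane-binding proteins that respond to calcium, ranked first by share with 6 of 11 genes (54.5%, 28.0 to 78.7%), against 11.2% of all genes, and had 7 regions at a median level of 3.10 and 698 per Mb (281 to 1438). Integrin beta (Itgb), integrin alpha (Itga) and adenylyl cyclase (Adcy) genes shared the next place, with 6 of 12, 6 of 12 and 5 of 10 genes. Their rates were 423 (193 to 803), 277 (120 to 546) and 177 (57.6 to 414) per Mb. These roots were picked as the highest of 282, and their intervals do not allow for that choice.

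Most genes, 2063 of 2451, had 1 region, 314 had 2, 54 had 3 and 20 had 4 or more. Syne1, which encodes a nuclear envelope spectrin repeat protein, had 6 at 1.72 to 5.64. Tnxb, Ccdc162 and Hmcn2 had 5 each, Tnxb being the gene of a tenascin of connective tissue. Arhgap10, Ablim1 and Abi3bp had 4 each, with highest levels of 4.25, 4.16 and 4.06. None of these named genes had a region on its first coding exon. Over all genes, first coding exons carried 3.36% of the regions, and 2682 of 18250 first coding exons could be counted. An absence in these few genes is therefore no trait of them.

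Of 15 loci examined in the study, 1 had a region over coding sequence away from starts, Fgf23, against 11.2% of all genes, and several of the others had little coding sequence that could be counted. Fgf23 encodes the phosphate-regulating hormone made by osteocytes. The region (chr6:127079641-127080567) was 927 bp wide, contained all 438 coding bp of the last of 3 coding exons, lay 6739 bp from the start of the gene and ranked 209 of the 2944 by level, at 4.23. It was CpG-rich, with 60.2% GC. The coding exons of Egln1, Egln2, Egln3, Hif1a, Epas1, Slc2a1, Tfrc, Phex, Dmp1, Tnfsf11, Tnfrsf11b, Gpr35 and Ero1l held none, and Vegfa had no coding exon far enough from a start.

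Short motifs of transcription factors were counted on both strands in the central 200 bp of each region. AP-1 was searched as TGACTCA or TGAGTCA. The HRE core is bound by HIF. RUNX was TGTGGTT and TEAD was ACATTCC. The CTCF core was searched as a longer degenerate motif. AP-1 was found in 9.21% of coding-exon regions (8.21 to 10.3%), against 14.2% in introns (13.8 to 14.6%), 14.0% between genes (13.6 to 14.4%) and 6.05% at promoters (5.73 to 6.37%). RUNX was found in 7.27% (6.39 to 8.26%) against 10.3% in introns (9.97 to 10.6%), and TEAD in 4.08% (3.42 to 4.85%) against 5.55% (5.32 to 5.80%).

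The HRE core went the other way, at 29.8% (28.2 to 31.5%) against 19.5% in introns (19.1 to 19.9%) and 39.4% at promoters. It contains a CpG, and it was found in 66.9% (61.1 to 72.3%) of CpG-rich and 26.1% (24.5 to 27.8%) of the other coding-exon regions. AP-1 was found in 1 of the 269 CpG-rich regions and in 270 of the 2675 others. Across classes AP-1 was found in 10.1% of regions on internal exons (8.91 to 11.5%) and in 6.59% on last exons (4.86 to 8.88%). The CTCF core was found in 4.76% (4.04 to 5.58%) of coding-exon regions and in 3.25% (3.07 to 3.44%) of those in introns, with 4.35% (4.13 to 4.58%) between genes. In the other non-promoter regions that touched an exon it was found in 5.45% (4.74 to 6.26%).

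Within the regions, coding and noncoding bases were then counted apart. AP-1 sites wholly in coding bases came to 0.218 per kb (0.180 to 0.260), and those in noncoding bases to 0.50 per kb (0.458 to 0.546). Coding bases outside all regions held 0.115 per kb (0.111 to 0.120) and noncoding bases outside held 0.158 (0.158 to 0.159). Inside regions AP-1 was thus 1.88 times as frequent as outside in coding bases and 3.16 times in noncoding bases. For RUNX the 2 ratios were 1.32 and 1.66 and for TEAD 1.08 and 1.54. For the HRE core they were 1.54 and 1.86, so against bases outside regions it went the same way as AP-1. Outside regions the HRE core came to 1.78 per kb in coding and 0.82 per kb in noncoding bases. For the TEAD motif in coding bases, the interval inside regions (0.124 to 0.192 per kb) included the rate outside (0.144). CTCF core matches were rare outside regions and were 16.6 times as frequent inside them in coding bases and 49.9 times in noncoding bases, from 50 and 157 sites.

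**Figure D5:**
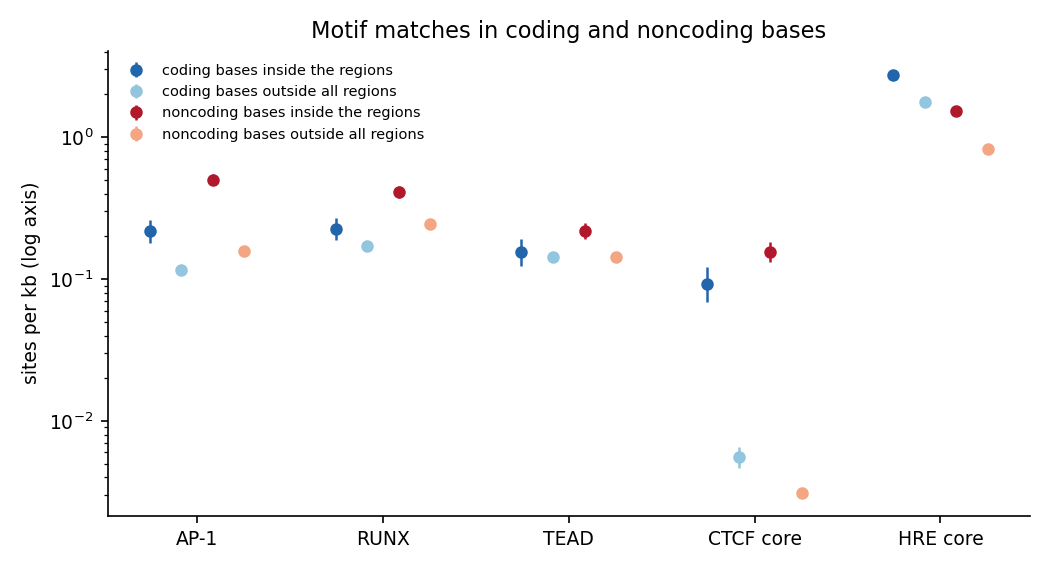
Matches per kb (log axis) of 5 motifs in coding and noncoding bases inside the coding-exon regions and outside all regions. Points are rates and bars exact 95% Poisson intervals, which for many points are smaller than the symbol. Rates inside regions are above those outside for AP-1, RUNX, CTCF and the HRE core, and for TEAD in noncoding bases.

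An AP-1 site on the coding strand cannot begin at the first position of a codon, because its first 3 bases would be a stop codon in frame. None of 110 sites placed in a reading frame in the regions did, nor any of 2696 outside. The sites in regions began at the second position in 35 cases and at the third in 75 (68.2%, 59.0 to 76.1%). Outside regions the third position held 55.6% (53.7 to 57.4%). For RUNX the third position held 47.0% in regions (38.2 to 56.0%) and 43.9% outside (42.4 to 45.4%), and for TEAD 28.8% (20 to 39%) and 30.5% (29.0 to 32.1%).

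Examples of regions with high levels and an AP-1 site wholly in coding bases were on Crybg3 (level 5.77, coding exon 4 of 22), Gfpt2 (5.73, exon 6 of 19), Slx4ip (5.09, exon 7 of 7) and Afap1 (4.42, exon 4 of 16). Gfpt2 encodes a rate-limiting enzyme of hexosamine synthesis and Afap1 an actin filament protein. The site began at the third codon position in all 4. The windows of 31 coding bases around them, from Crybg3 (chr16:59560086-59560116, minus strand), Gfpt2 (chr11:49811678-49811708, plus strand), Slx4ip (chr2:137067656-137067686, plus strand) and Afap1 (chr5:35948054-35948084, plus strand), are given 5′ to 3′ on the strand of the gene with the site in capitals.
Crybg3: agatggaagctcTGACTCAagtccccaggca
Gfpt2: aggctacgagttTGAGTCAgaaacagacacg
Slx4ip: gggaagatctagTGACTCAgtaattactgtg
Afap1: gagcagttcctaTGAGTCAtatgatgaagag

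At the limits of the definition there was no step in level. The 265 regions at over 1000 and up to 1500 bp from a start had a median level of 1.98, as did the 370 regions over coding exons at over 500 and up to 1000 bp, and 17.4 and 20.5% of them were CpG-rich. The 312 regions with 50 to 69 coding bp had a median of 2.07, and the 271 with 30 to 49 coding bp a median of 1.91.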

How the data were processed

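ATAC-seq libraries of MPC2 cultures were sequenced as paired-end reads. The authors trimmed the reads, aligned them to mm10 with Bowtie2, removed duplicates with Picard 2.17.8 and called peaks with MACS2 2.2.7.1. Peaks of the samples were merged, blacklisted sequence was removed, and regions with few cuts were dropped. Cuts were scaled to TMM library sizes, and a library of poor quality was left out. Whether cut positions were shifted for Tn5 is not given in the sources used here. The deposited log2 value of each region was read as an average log2 CPM over all cultures, because 460 values were below 0 and the values raised as powers of 2 summed to 1.01e+06 CPM. It is 1 pooled value, so samples were assigned to groups for description only.

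Distances to starts, coding overlap, GC content and motifs were computed here with Python 3.11.15, pysam 0.24.0 and GRCm38 sequence. Coordinates are 1-based, and sequences are from RefSeq's GRCm38 assembly, with none shown from chromosome 18. The reference transcript of a gene was that with the best APPRIS tag, then the longest coding sequence. A region was assigned to the gene with most coding bases in it. Regions of like width were compared in 20 quantile bins, of which those with fewer than 20 regions of a kind were left out. CpG-rich means at least 55% GC and an observed-to-expected ratio of at least 0.6. The functions were tested on simulated data.

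Regions and genes were named by rule. They were the 10 highest and 5 widest regions, the 10 genes with most regions, the 3 highest per exon class and on genes of 1 exon, the regions at 15 loci of the study, and the highest region of each of 40 families of which selected ones are described. Fbxl22, Rax, Ccr10, Mgat1, Pcdha9, Hoxb8, Hoxb3, further members of the collagen, Wnt and Olfr families, and the further regions on genes of 1 exon were named after their values were seen. Some items named by these rules are not reported here. The members and lists were chosen with earlier results of these data known. Alternatives for the distance, overlap, width, transcript and chromosome choices are given in the closing section.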

Additional observations from a re-analysis of the deposited data

How the results depend on the processing

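Of 83 values recomputed under 9 alternatives, 28 left the interval of the reported value or, for the number of regions, a factor of 1.5, and the other 55 did not. Asking for at least 200 bp of coding sequence left 904 regions with a median level of 1.88. First, internal and last coding exons then held a region in 1.53, 0.49 and 2.09% of cases. The shares of regions on first, last and single coding exons were 6.31, 33.3 and 7.52%, and 5.42% had an AP-1 site. Asking that at least 50% of the region be coding left 965 regions with a median of 1.16 and a difference of -0.082 from other regions of like width. The exon shares were 1.53, 0.48 and 2.06%, the class shares 6.22, 31.4 and 6.63%, and the AP-1 share 4.97%. Regions at least 500 bp wide numbered 1209 with a median of 3.17. Exon shares were 1.27, 0.90 and 1.69%, the share on last exons was 18.6% and the AP-1 share 10.8%. These alternatives drop regions by construction. At more than 2000 bp from every start, first and single exons held 2.49 and 1.96% of regions. Last exons held a region more often than internal exons under each of the 8 alternatives that recounted exons. The alternative that also used curated RefSeq starts was chosen after seeing the data. No paired analysis was possible because a single pooled value stood for each region, and no culture could be left out in turn for the same reason. Cuts per culture are unknown, so the depth behind a level cannot be given.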

Other observations

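Regions over coding exons were spread unevenly over the chromosomes. Relative to coding sequence away from starts, chromosome 16 had 283 per Mb, and 4.80% of its coding exons held one. The next were chromosome 18 with 197 per Mb and chromosome 11 with 190. Chromosome X had 30.8 per Mb with 0.49% of exons, and chromosomes 3 and 5 had 79.4 and 82.5. As a share of all regions on the chromosome the spread was smaller, from 1.74% on X, Y aside, to 4.44% on chromosome 11, with 3.31% on chromosome 16. The 7 regions on Y included none over coding exons.

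Genes with a region over their coding exons also had a region within 1000 bp of one of their own transcript starts more often, in 80.4% of 2411 genes (78.7 to 81.9%) against 69% of 15225 genes (68.3 to 69.7%) without one. In the quartile of genes with least coding sequence away from starts the shares were 69.3% (63.2 to 74.8%) and 66.1% (64.7 to 67.5%), and in the quartile with most 83.7% (81.4 to 85.7%) and 74.0% (72.4 to 75.4%). The median promoter level was 4.97 in genes with such a region and 5.06 in genes without. Genes share promoters and neighbourhoods, so these counts are not independent, and no replicate check exists for them.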
